A study of Mus musculus with 12 samples.

Results

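The regions described here are BMAL1-ChIP-seq regions at gene promoters that hold a single E-box, the 6-base site CACGTG. Peaks of the 6 BMAL1 libraries that shared 1 bp or more were joined. Of the resulting 16818 regions, 7452 were called in 2 or more libraries. A region was kept when its midpoint lay within 1000 bp of the start site of a protein-coding gene and when it held exactly 1 CACGTG and no AP-1 site TGASTCA, where S is C or G. This left 724 of the 2937 promoter regions called in 2 or more libraries. The members were thus chosen by the peak calls themselves, so how often each was called is given as a description. The shares per library set against each other further on use those same calls. At the distance limit, the members just inside were those of Ltbp4 and Prdx6, at 993 and 995 bp, and the regions just outside were those of Ctsl and Slc7a1, at 1013 and 1014 bp.

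The libraries came from primary mouse adult fibroblasts (MAFs), cells grown at 3% O2 from the ears of C57BL/6 mice. Control cells had a sham irradiation, while the senescent cells received 20 Gy of X-rays, a dose that damages DNA and arrests division. Cells of both groups then had 100 nM dexamethasone for 2 hours, a steroid pulse that synchronises the clocks of a culture, and were taken for ChIP 12 hours after it, with 3 libraries in each group. Each also had an input library, not analysed here. By the study's methods irradiated cells were kept in culture for some weeks before use. The sources do not give whether replicates came from separate cultures or animals, so every p-value measures only the spread between these libraries. Cell identity and senescence could not be checked from peak lists. The lists held 2794, 3349 and 10601 peaks in control replicates 1 to 3 and 4220, 9805 and 5053 in senescent replicates 1 to 3. Control replicate 3 and senescent replicate 2 thus stood apart from their groups. The number of reads behind each list is unknown.

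BMAL1 is the activating arm of the circadian clock. It pairs with CLOCK, and the pair binds E-boxes and drives genes such as the Period and Cryptochrome repressors, whose proteins later block it. The same 6 bases are also bound by USF1 and USF2, by the MYC and MAX family and by TFEB and TFE3, which control cell growth, lysosomes and autophagy. Promoters rich in CpG dinucleotides hold many such sites, because the E-box itself has a CpG at its centre.

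The following sequences carry the description that follows. Each is the E-box in capitals with 12 bases on either side, read on the strand of the nearest gene in mm10. The first 12 are those with the best mean score rank among the members called in all 6 libraries.
Cry1 (chr10:85185097-85185126, minus strand): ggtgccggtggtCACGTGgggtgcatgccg
Dgat2 (chr7:99183033-99183062, minus strand): cggatcgtcccgCACGTGctcaaactccct
Bnip3 (chr7:138909597-138909626, minus strand): gcgcacgcgccgCACGTGccacacgctccc
Hif1a (chr12:73907720-73907749, plus strand): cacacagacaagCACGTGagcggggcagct
Alpk1 (chr3:127780435-127780464, minus strand): gcgtcgcagaggCACGTGtatcaacacgtt
Eef2k (chr7:120842788-120842817, plus strand): cccggggacggcCACGTGagcccgggcgtg
Gmfb (chr14:46822232-46822261, minus strand): gccgtccgctgtCACGTGcgggccacggcg
Slc25a39 (chr11:102408580-102408609, minus strand): ccacttggaatcCACGTGctagctgggctg
Ip6k1 (chr9:108002440-108002469, plus strand): tgccgtcacagtCACGTGccccaggcattc
Eif4a1 (chr11:69672595-69672624, minus strand): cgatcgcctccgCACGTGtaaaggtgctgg
Tns2 (chr15:102104260-102104289, plus strand): acatagctccgcCACGTGagaagtcctgag
Mepce (chr5:137786781-137786810, minus strand): catcatctccagCACGTGttgccccttcaa
The next 4 belong to the members that passed a test between the groups described further on (limma), a result most alternatives did not keep.
Ctsf (chr19:4855074-4855103, plus strand): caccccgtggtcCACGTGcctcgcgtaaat
Gstm1 (chr3:108017525-108017554, minus strand): ggtgtgcacatgCACGTGcggggtgacggc
Pigw (chr11:84880260-84880289, minus strand): cggcgcgggacgCACGTGgcccgtcccagg
Irs2 (chr8:11008956-11008985, minus strand): gtaacgcagagtCACGTGttgttttgctct
The last 9 come from the clock genes Tef and Usp2, from the 5 best-ranked members called in all 3 senescent and 0 control libraries, and from 2 of the 4 members called in control libraries alone.
Tef (chr15:81802534-81802563, plus strand): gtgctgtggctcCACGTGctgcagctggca
Usp2 (chr9:44066851-44066880, plus strand): gtgctttttctcCACGTGgttctctgtata
Gnai1 (chr5:18360514-18360543, minus strand): gctgtccgacggCACGTGcgcgggcgggcg
Banf1 (chr19:5366266-5366295, minus strand): tgctgttcctacCACGTGttagttcccaac
Papola (chr12:105784398-105784427, plus strand): tgggctgccccgCACGTGgcgcccgcttgg
Pim3 (chr15:88861822-88861851, plus strand): ctgtcgcccagcCACGTGcgcatcgtggcg
Susd1 (chr4:59438780-59438809, minus strand): tgtctttctcacCACGTGtctctccccgtt
Ccdc61 (chr7:18910548-18910577, minus strand): gaggtctccccaCACGTGttagtaacgcct
Smc3 (chr19:53600042-53600071, plus strand): cggcccggcgacCACGTGacctccggcgcg
The bases beside the E-box varied widely. Cry1, Gmfb, Ip6k1 and Irs2 carry GT directly 5′ of the E-box on 1 strand, while Dgat2, Bnip3 and Eif4a1 carry it on neither. On both strands GT was found in 27 members (3.73%).

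The member with the highest scores was Cry1, a repressor of the CLOCK and BMAL1 pair. Its region (chr10:85183639-85186068) was also the widest, at 2430 bp, and its E-box lay 48 bp upstream of the start site. The deposited score, read as −log10 of the q-value of a peak, was 259, 280 and 451 in control replicates 1 to 3 and 406, 522 and 429 in senescent replicates 1 to 3. Such scores grow with the depth of a library, so each was turned into a percentile of its own list, with 100 for the best peak and 0 for the weakest. The Cry1 peak stood at percentile 99.6, 99.7 and 99.9 in control and 99.6, 99.9 and 99.8 in senescent cells. It was among the leading peaks of every list, and the groups overlapped.

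The other leading members were not on the list of clock genes. Dgat2, which makes triglycerides, scored 185, 144 and 201 in control and 255, 325 and 280 in senescent cells (chr7:99182430-99183791). Bnip3, a receptor that sends mitochondria to autophagy, scored 75.01, 45.8 and 117 in control and 103, 151 and 145 in senescent cells (chr7:138908836-138910279). Hif1a, the oxygen-regulated factor of the hypoxia response, scored 68.5, 41.1 and 66.2 in control and 90.0, 177 and 120 in senescent cells (chr12:73907152-73908149). The E-box of Bnip3 lay 106 bp upstream of its start site, and that of Hif1a lay 169 bp upstream of the nearest start site, in an annotated intron. All 3 stood at or above percentile 97.4 in each of the 6 lists. Although the scores of Dgat2 and Hif1a were higher in senescent cells, in percentile the groups overlapped for all 3. Dgat2 stood at 99.2, 99.3 and 99.7 in control and 99.4, 99.8 and 99.6 in senescent cells. Hif1a stood at 98.2, 97.4 and 99.1 in control and 97.7, 99.5 and 98.8 in senescent cells. Alpk1, Eef2k (the kinase of elongation factor eEF2), Gmfb, Slc25a39 (a mitochondrial glutathione carrier), Ip6k1 (an inositol phosphate kinase), Eif4a1 (the helicase of translation initiation), Tns2 (a focal adhesion protein) and Mepce (which caps 7SK RNA) completed the first 12. Tns2 scored 29.7, 34.7 and 36.2 in control and 103, 124 and 113 in senescent cells, at percentiles of 93.9 to 97.8 and 98.0 to 99.2, which did not overlap. Eif4a1 ran the other way in percentile, with 98.0, 98.2 and 99.4 in control and 94.9, 97.9 and 95.9 in senescent cells, also with no overlap. Neither passed the test across all regions described further on, where the adjusted p (limma) was 0.236 for Tns2 and 0.0678 for Eif4a1.

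By the rule, the E-box of a member lay inside a region whose midpoint was within 1000 bp of a start site. Its place within those limits is described here, and whether it differs from random placement was not tested. The absolute distance from the E-box to the centre of the best-ranked peak had a median of 56 bp (interquartile range 27.0 to 102 bp). It was 50 bp or less in 332 members (45.9%) and 100 bp or less in 540 (74.6%). The E-box lay upstream of the start site in 483 members (66.7%) and downstream in 239 (33.0%). Over all 724 members, upstream and downstream, the median position was −58 bp, where negative is upstream. In 493 members (68.1%) it was within 250 bp of the start site on either side. By the GENCODE M21 annotation, 401 E-boxes lay outside protein-coding transcripts, 166 in exons outside the coding part, 136 in introns and 21 in coding exons. The 724 regions had 712 different nearest genes, and 87 regions had start sites on both strands within 1000 bp. CpG-rich sequence, meaning over 50% GC and a CpG ratio over 0.6 in the 500 bp around the E-box, held 570 members (78.7%).

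**Figure D1:**
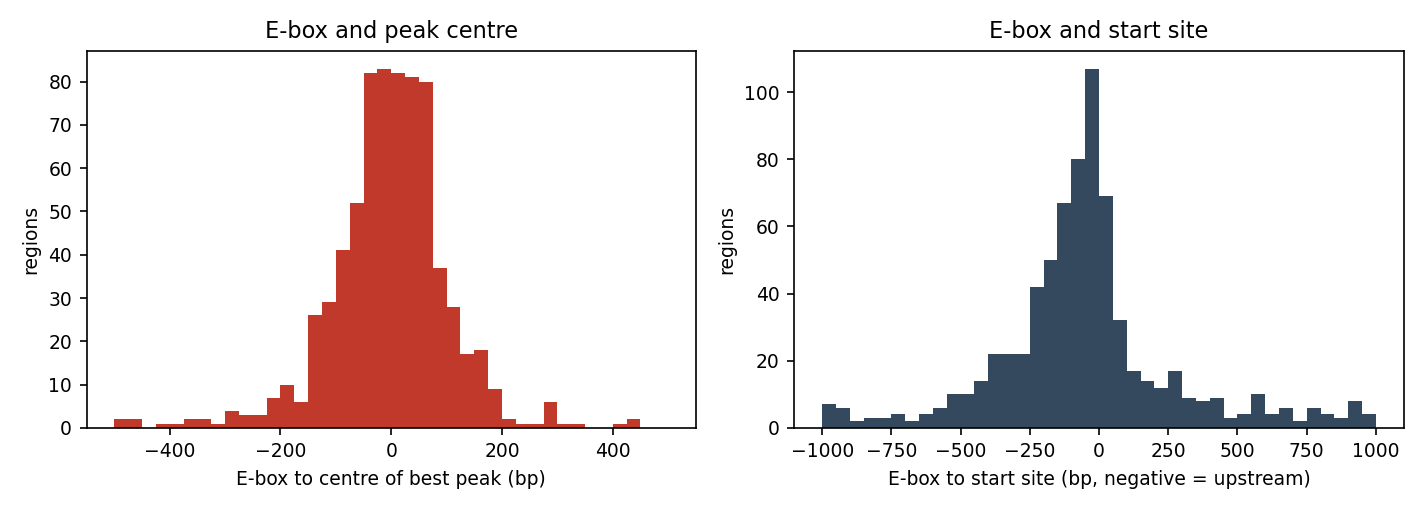
Histograms of the distance in bp from the E-box to the centre of the best-ranked peak of its region (left) and to the nearest protein-coding start site (right, negative upstream), over the 724 regions, with distances beyond the axis placed in the end bins. Both distributions peak near 0, with medians of 56 bp for the absolute distance to the peak centre and −58 bp to the start site.

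To ask which promoter E-boxes become members, every lone CACGTG within 500 bp of a protein-coding start site on the autosomes and X was collected from the genome sequence, with no other E-box within 500 bp. Of 3812 such sites, 561 (14.7%, 95% Wilson interval 13.6 to 15.9) lay in a member. Intervals here cover counting error over sites only. Position and CpG content went with this share. It was 22.5% (19.4 to 25.9) from 250 to 100 bp upstream, 22.7% (19.9 to 25.8) in the last 100 bp before the start site and 20.9% (17.5 to 24.8) in the first 100 bp after it. Farther downstream it was lower, at 6.70% (4.70 to 9.45) from 100 to 250 bp and 5.17% (3.801 to 6.98) from 250 to 500 bp. From 500 to 250 bp upstream it was 10.5% (8.52 to 12.9). CpG-rich sites lay in a member in 27.3% (25.3 to 29.4) of 1748 cases, and other sites in 4.07% (3.30 to 5.01) of 2064. DNA methylation and chromatin state were not analysed here.

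**Figure D2:**
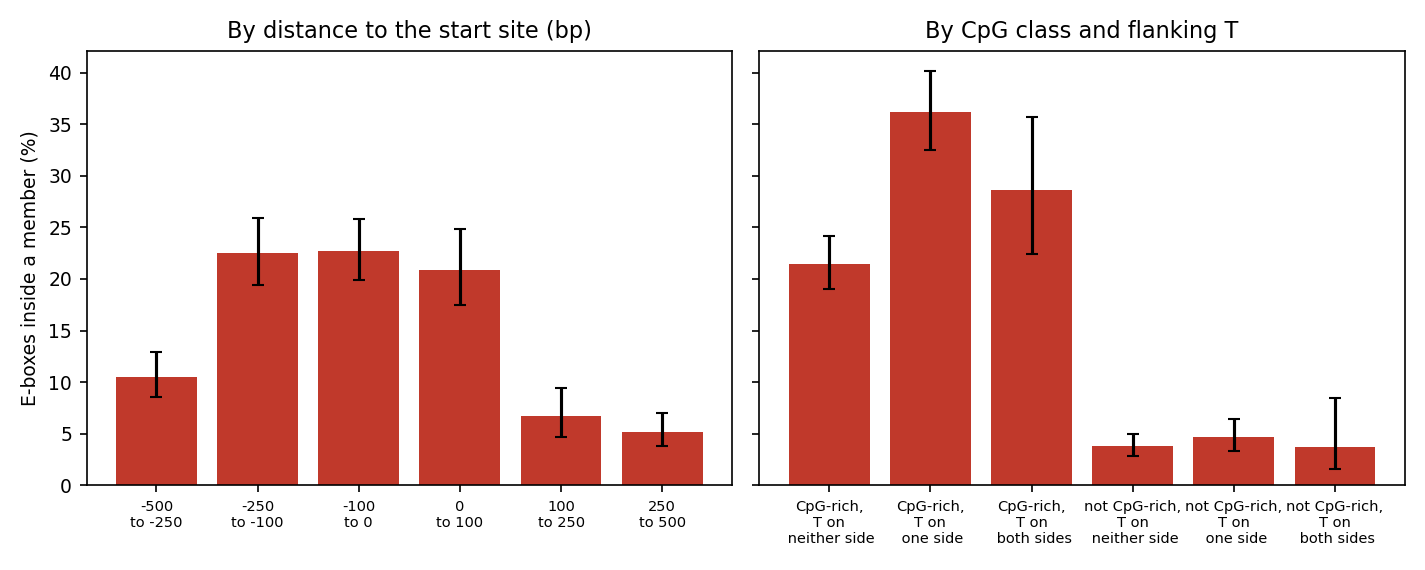
Share (%) of lone genomic promoter E-boxes that lie inside a member, by distance to the start site in bp (left, negative upstream) and by CpG class and number of T bases directly 5′ of the E-box on its 2 strands (right), with 95% Wilson intervals as error bars. The share is above 20% from 250 bp upstream to 100 bp downstream, and is 36.2% for CpG-rich sites with T on 1 side against 4.65% for other sites with T on 1 side.

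The base next to the E-box went with membership and with rank in different ways. CACGTG reads the same on both strands, so a T directly 5′ of it can stand on neither, 1 or both strands. Among the genomic promoter sites, those with T on neither side lay in a member in 11.6% (10.3 to 13.0), those with T on 1 side in 19.2% (17.1 to 21.4) and those with T on both sides in 17.8% (13.9 to 22.5). This order was that of CpG-rich sites, where the shares were 21.5% (19.02 to 24.2), 36.2% (32.5 to 40.1) and 28.6% (22.4 to 35.7). Among the 2064 other sites they were 3.77% (2.84 to 4.99), 4.65% (3.33 to 6.46) and 3.73% (1.60 to 8.44), with intervals that overlap. With GT on both sides the share was 32.1% (22.7 to 43.0), or 25 of 78 sites. Counting only members called in all 6 libraries turned the order of the outer classes: 2.97% (2.34 to 3.77) with T on neither side and 1.94% (0.893 to 4.17) with T on both, with intervals that overlap. Within the members, 350 had T on neither side, 309 on 1 side and 65 on both sides. The median percentile of the 65 was 21.9, 42.6 and 64.9 in control replicates 1 to 3 and 45.3, 66.8 and 46.2 in senescent replicates 1 to 3. The median of the 350 was 53.7, 55.9 and 74.6 in control and 56.1, 75.2 and 63.1 in senescent cells, so the members with T on both sides ranked lower in 6 of 6 libraries. The mean difference was −15.2 percentile points ± 8.71 (SD, n = 6 libraries, exact two-sided sign-flip test, p = 0.031, adjusted p = 0.0833 over 8 tests). Only 14 of the 65 were called in control replicate 1. Their regions had a median width of 356 bp against 411 bp, whose part in the difference was not tested.

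The value 0.031 is the smallest that 6 libraries can give in a sign-flip test, and 0.1 the smallest that 3 against 3 libraries can give in a permutation test. None of the tests had an adjusted p under 0.05. For the place of the E-box in the peak no difference was detected. Members with the E-box within 50 bp of the peak centre ranked −0.0232 percentile points ± 2.04 (SD, n = 6) from the others, with 3 of 6 libraries higher (exact sign-flip p = 1).

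Members were called more often in senescent than in control libraries. Of the 724, 255 (35.2%), 265 (36.6%) and 523 (72.2%) were called in control replicates 1 to 3, and 530 (73.2%), 687 (94.9%) and 555 (76.7%) in senescent replicates 1 to 3. The groups did not overlap, though control replicate 3 lay just below senescent replicate 1. Control libraries held 48.0% ± 20.98 of the members on average and senescent ones 81.6% ± 11.7 (SD, n = 3 each), 33.6 percentage points apart. No p is given, since the members were chosen on these calls, 174 of them through senescent libraries alone and 4 through control libraries alone. With peaks above the median score alone, or with a promoter distance of 500 bp, the groups overlapped. Over all 7452 regions the shares were 32.4%, 38.6% and 75.03% in control and 50.6%, 79.7% and 57.2% in senescent libraries, where the groups overlapped. Promoter regions with no E-box and no AP-1 site, of which there were 1722, were called in 18.6%, 28.3% and 80.5% and in 36.8%, 88.9% and 47.3%. Across the 6 libraries the share of the regions without an E-box rose with the length of the list, except between the 2 longest lists.

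When every list was cut to its 2794 best peaks, the length of the shortest, the groups did not overlap in members, nor did they over all regions. Of the 444 members found in this way, 53.2%, 51.1% and 57.2% were called in control and 82.7%, 82.2% and 78.4% in senescent libraries, a difference of 27.3 points, again on the calls that chose them. All 3692 regions found in this way were called in 56.0%, 56.4% and 56.8% of cases in control and 63.8%, 61.8% and 61.7% in senescent libraries, and the 539 distal regions with 1 E-box in 58.4%, 51.02% and 49.7% and in 72.7%, 61.6% and 65.1%. The groups were thus apart in these sets too. The 616 promoter regions without an E-box were called in 45.3%, 54.5% and 58.1% of cases in control and 51.3%, 61.0% and 50.6% in senescent libraries, which overlapped. The 222 promoter regions with 2 or more E-boxes were called in 66.7%, 62.2% and 61.7% and in 90.1%, 94.6% and 86.5%.

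**Figure D3:**
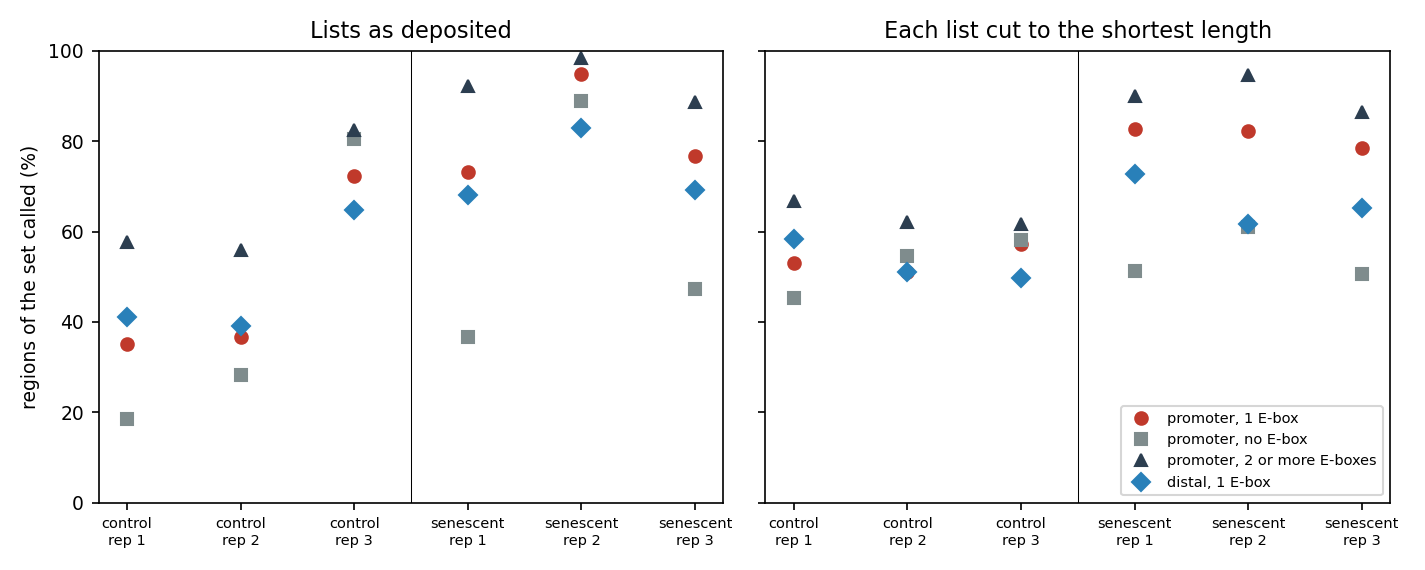
Share (%) of each region set called in each of the 6 libraries, with the lists as deposited (left) and with each list cut to the shortest length (right); each point is 1 set in 1 library and the line parts control from senescent. At equal length the single-E-box promoters sit at 51.1 to 57.2% in control and 78.4 to 82.7% in senescent libraries.

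By call pattern, 175 members (24.2%) were called in all 6 libraries, against 14.8% of all regions called in 2 or more. Another 174 (24.0%) were called in 2 or 3 senescent and 0 control libraries, against 21.3% of all regions. Only 4 members (0.552%) were called in 2 or 3 control and 0 senescent libraries, against 13.2% of all regions, 5.28% of the promoter regions without an E-box, 10.5% of distal regions with 1 E-box and 0.388% (1 of 258) of promoter regions with 2 or more E-boxes. These 4, named for their small number, were Mettl3 (the RNA m6A methyltransferase), Smc3 (a cohesin subunit), Eif3f (a subunit of translation initiation factor eIF3) and Ccdc61. At equal list length they numbered 13 of 444 (2.93%), against 20.3% of all regions. The senescent-only share rose to 25.7% there, against 22.5% of all regions. Altogether 418 members (57.7%) had more senescent than control calls, against 43.5% of all regions, and 30 (4.14%) had more control calls, against 20.9%.

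In the stricter classes, 75 members were called in 3 senescent and 0 control libraries (10.4%, against 8.43% of all regions), and 1 in 3 control and 0 senescent libraries (0.138%, against 3.56%). The best-ranked of the 75 were Gnai1 (an inhibitory G protein subunit), Banf1 (a DNA-bridging protein of the nuclear envelope), Papola (the poly(A) polymerase), Pim3 (a growth-promoting kinase) and Susd1. Gnai1 scored 27.5, 25.8 and 12.3 in senescent replicates 1 to 3 (percentiles 88.2, 93.1 and 72.7) and had no peak in any control list (chr5:18360216-18360845). Banf1 scored 12.8, 19.2 and 20.3 in the senescent libraries, and Papola 17.5, 17.8 and 14.1. The 1 member of the reverse class, Ccdc61, scored 7.35, 4.63 and 18.7 in control replicates 1 to 3 (percentiles 58.6, 26.8 and 92.5). An absent peak means only that the region did not pass the 1% false discovery rate in that library.

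Where a member was called, its rank was compared with that of other regions in the same list. The rule used the scores only through the 1% false discovery rate behind each call, and the other sets also had to be called in 2 or more libraries. E-boxes were counted over the whole region, so its width entered the rule. The median width was 628 bp for members called in all 6 libraries and 274 bp for those called in 2. The tests between region sets below are thus not independent of the rule. Nor are those between the groups, since each median covers only the regions called in that library. Of the members, 174 were chosen through senescent libraries alone and 4 through control libraries alone. The p-values between groups thus compare different regions. The median percentile of called members was 56.0, 58.0 and 74.5 in control and 60.2, 77.7 and 63.5 in senescent replicates 1 to 3 (62.8 ± 10.1 against 67.1 ± 9.33, SD, n = 3 each, exact permutation p = 0.5). The groups overlapped, and the highest value in each came from its longest list. The sign of this difference turned, to −1.89, at equal list length.

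Within a library, members outranked promoter regions without an E-box. The difference of the medians was 12.5, 11.2 and 12.8 percentile points in control replicates 1 to 3 and 18.9, 20.9 and 20.0 in senescent replicates 1 to 3. All 6 were above 0, with a mean of 16.04 ± 4.33 (SD, n = 6, exact sign-flip test, p = 0.031, adjusted p = 0.0833). It averaged 12.2 ± 0.816 over the control and 19.9 ± 1.01 over the senescent libraries (SD, n = 3 each). The groups, whose called regions differ, were 7.76 points apart with no overlap (exact permutation test, p = 0.1, adjusted p = 0.16). Region width moved with the difference of the medians: members had a median width of 405 bp and the regions without an E-box 306 bp. Among regions of 300 to 500 bp alone, a restriction chosen after seeing the data, the difference was 0.743, −7.66 and 1.98 points in control and 18.7, 11.2 and 13.1 points in senescent libraries, a mean of 6.35 over the 6 (exact sign-flip p = 0.156), with 15.99 points between the groups. With motifs counted within 100 bp of the peak centre instead, it was 17.1 over the 6 libraries, and the groups were 3.58 points apart and overlapped. At equal list length the groups were 2.24 points apart.

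Members ranked below promoter regions with 2 or more E-boxes, and no difference in rank from distal regions with 1 E-box was detected. Against the 258 promoter regions with 2 or more E-boxes, the difference ran from −25.4 to −13.3 points, with 0 of 6 libraries above 0 and a mean of −19.5 ± 5.09 (SD, n = 6, exact sign-flip test, p = 0.031, adjusted p = 0.0833). Those regions were wider still, with a median of 646.5 bp, and at 300 to 500 bp the mean difference was −9.99. Against the 855 distal regions with 1 E-box, the mean difference was −0.129 ± 4.79 (SD, n = 6, exact sign-flip p = 0.906), and the 3 control libraries were below 0 and the 3 senescent libraries above 0.

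**Figure D4:**
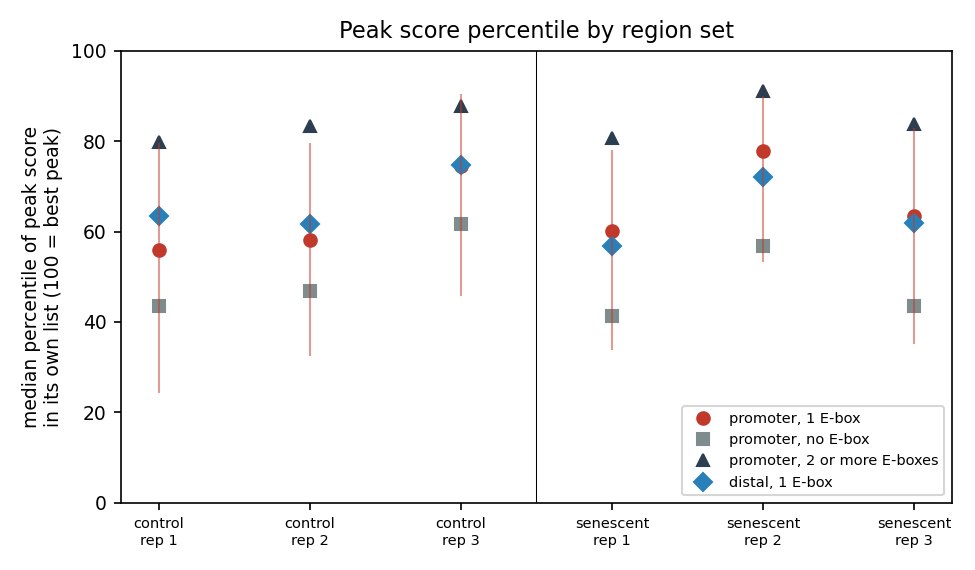
Median percentile of the peak score within its own list (100 for the best peak) for 4 region sets in each of the 6 libraries; the vertical lines span the interquartile range of the single-E-box promoters. In every library the single-E-box promoters lie 11.2 to 20.9 points above promoters without an E-box and 13.3 to 25.4 points below promoters with 2 or more.

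For the 1106 regions called in all 6 libraries, among them 175 members, scores were ranked within each library, the ranks were turned into quantiles of a standard normal distribution, and senescent and control libraries were compared with limma across all 1106. By this test 4 members were higher in senescent cells and 0 were lower at an adjusted p under 0.05, against 1.72% of all 1106 regions higher and 2.08% lower. At an unadjusted p under 0.05, 24 of the 175 members were higher and 9 lower, against 13.1% and 13.7% of all regions. The share of members higher was thus close to that of all regions, and the share lower was smaller. The median difference was 0.18 normal-score units over the 175 members and 0.01 over all 1106 regions. When only the 488 promoter regions were ranked against each other, the median was 0.0052 over the members and −0.02 over the 488, and 0 members passed limma (12 higher and 16 lower at an unadjusted p under 0.05).

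The 4 members were Ctsf, Gstm1, Pigw and Irs2, of which Gstm1 and Pigw were named after their values were seen. Ctsf, the lysosomal protease cathepsin F, scored 5.27, 7.84 and 15.2 in control and 44.3, 51.3 and 48.4 in senescent cells (chr19:4854686-4855396). Its rank difference was 1.49 ± 0.242 normal-score units (SE, limma, adjusted p = 0.0360). Gstm1, a glutathione transferase, scored 3.72, 7.58 and 11.6 in control and 47.1, 46.7 and 55.6 in senescent cells (chr3:108017217-108018116), a difference of 1.88 ± 0.317 (limma, adjusted p = 0.0360). Gstm1 lies among close paralogs, where reads can map to more than 1 gene. By its methods the study kept only pairs of which 1 or both ends mapped uniquely. Pigw, an enzyme of GPI-anchor synthesis, scored 7.08, 6.76 and 8.30 in control and 38.8, 59.3 and 27.6 in senescent cells (chr11:84879724-84880845), a difference of 1.48 ± 0.265 (limma, adjusted p = 0.0360). The Pigw region also spans the start of Myo19. Irs2, which carries the signal of the insulin receptor, scored 3.19, 4.24 and 12.3 in control and 23.6, 33.9 and 26.0 in senescent cells (chr8:11008789-11009245), a difference of 1.64 ± 0.326 (limma, adjusted p = 0.0460). In all 4 the lowest senescent percentile was above the highest control percentile. Leaving out control replicate 3 also gave 4 members higher, but not the same 4. Ctsf, Irs2 and Slc33a1 then passed (limma, adjusted p = 0.04996 each). Gstm1 and Pigw did not (limma, adjusted p = 0.0653 and 0.0673). No member passed once control replicate 1, control replicate 2 or any 1 of the 3 senescent libraries was left out.

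**Figure D5:**
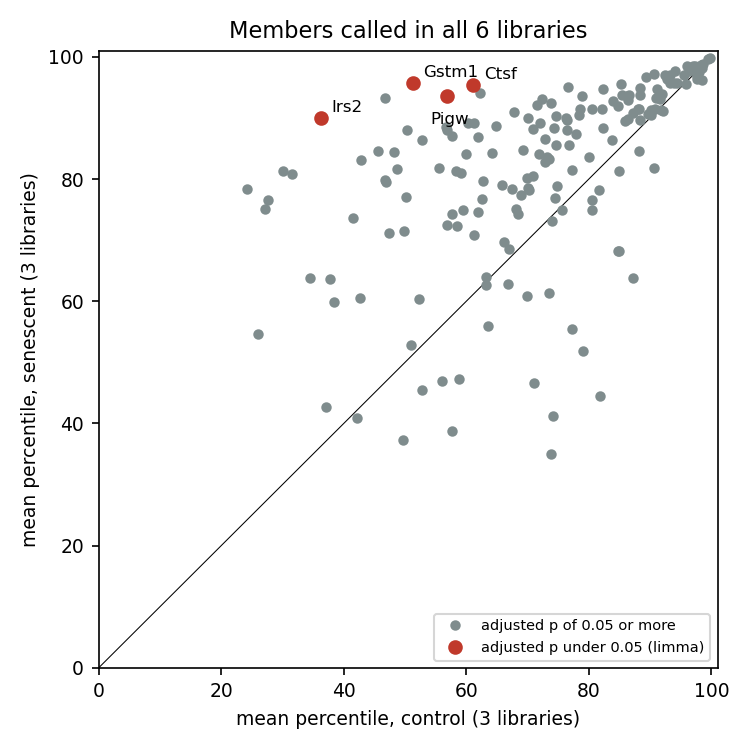
Mean percentile in the 3 senescent libraries (y axis) against the 3 control libraries (x axis) for the 175 members called in all 6 libraries, with the line of equality; red points have an adjusted p under 0.05 in limma. The 4 red points are Ctsf, Gstm1, Pigw and Irs2, all above the line.

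The largest differences of mean percentile among the 175 members were on the senescent side, which was not set against all 1106 regions. They were 54.1 points for Rev1 (a DNA polymerase that copies past lesions), 53.7 for Irs2, 51.2 for Slc33a1 (the acetyl-CoA carrier of the endoplasmic reticulum), 49.2 for Cdk5r1 (the activator of the kinase CDK5), 49.0 for Pdk2 (a kinase that inhibits pyruvate dehydrogenase) and 48.0 for Fadd (the adaptor of death receptors). The percentiles of Rev1 were 1.18, 12.9 and 58.7 in control and 83.0, 95.3 and 56.8 in senescent cells, so the groups overlapped (limma, adjusted p = 0.0901). Fadd, at 38.1, 10.1 and 33.2 in control and 57.6, 91.1 and 76.6 in senescent cells, did not overlap (limma, adjusted p = 0.117). On the control side the differences were smaller, at −38.8 points for Eif3b (a subunit of eIF3), −37.3 for Tle3 (a corepressor), −32.9 for Dnpep (a peptidase), −27.1 for Stard4 (a cholesterol carrier), −24.4 for Elovl5 (a fatty acid elongase) and −23.3 for Dnajb9 (a chaperone partner of the endoplasmic reticulum). Tle3 stood at 60.0, 89.1 and 96.3 in control and 19.4, 59.3 and 54.7 in senescent cells, with no overlap (limma, adjusted p = 0.0541). In percentile, 16 of the 175 members had all 3 senescent libraries above all 3 control libraries, against 13.0% (144) of all 1106 regions. The reverse held for 4 members, against 4.70% (52) of all regions. In both directions the share of members was smaller than that of all regions. These percentiles come from whole lists of unlike length. The median percentile over regions called in 2 or more libraries was 54.3, 53.5 and 67.6 in control replicates 1 to 3. In senescent replicates 1 to 3 it was 54.1, 65.1 and 55.9. Ranked among the 1106 regions alone, 145 were higher and 152 lower in senescent cells at an unadjusted p under 0.05 (limma). The part of list length in the differences above was not tested.

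Of 21840 protein-coding genes, 712 (3.26%) were nearest to a member, and 2672 had any promoter region called in 2 or more libraries. The gene lists below were chosen with earlier results of these data known. They are described against the 3.26%, which also counts genes without any promoter region. Genes with such a region numbered 16 for clock, 13 autophagy, 19 lysosome, 8 bHLH and 10 glycolysis. They numbered 14 for nucleotide synthesis, 15 ribosome biogenesis, 13 p53, 13 mitochondrial ribosomal and 17 oxidative phosphorylation. No list was tested against the 712 among those 2672 genes. Of 29 clock genes and clock outputs, 3 had a member. These were Cry1, Tef (a PAR bZIP output factor) and Usp2 (a ubiquitin protease that acts on clock proteins). Tef had no peak in control replicates 1 and 2, scored 8.83 in control replicate 3 and scored 11.4, 32.6 and 15.5 in senescent replicates 1 to 3. In percentile Tef stood at 67.5 in control replicate 3 and 65.8 in senescent replicate 1, so the groups overlapped. Usp2 had no peak in the control lists and scored 8.56, 12.9 and 3.18 in the senescent lists. Of the list, 5 genes had a promoter region with 2 or more E-boxes.

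Autophagy genes were the list with the most members, 9 of 46 (19.6%). They include Bnip3, Gabarap and Gabarapl2 (which coat the growing autophagosome), Uvrag, Atg14 and Wipi1 (which act in its formation), and Rragc, Lamtor1 and Fnip1 (which tell the kinase mTORC1 of amino acids at the lysosome). Of these, 6 were called in all 6 libraries, 0 of which passed the limma test. Uvrag scored 20.4, 15.2 and 39.3 in control and 29.5, 52.7 and 33.5 in senescent cells. Rragc scored 12.8, 9.85 and 26.6 in control and 15.7, 26.6 and 26.0 in senescent cells. In both genes the groups overlapped in percentile. The lysosome and V-ATPase list held 2 members of 59 genes (3.39%), Ctsf and Atp6v1c1, a subunit of the proton pump, while 9 genes of that list had regions with 2 or more E-boxes. Atp6v1c1 was called in senescent replicates 1 and 2 alone, at scores of 19.6 and 16.7.

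Among 26 bHLH-ZIP and bHLH-PAS factors, proteins that themselves bind E-box-like sites, 4 had a member (15.4%). Besides Hif1a, these were Mnt, Mxd3 and Mxd4, all partners of MAX that oppose MYC. Mxd4 scored 4.61, 4.37 and 19.2 in control and 11.5, 41.6 and 30.6 in senescent cells, and the percentiles of the groups overlapped. Mxd3 was called in the 3 senescent libraries alone, at 6.42, 12.5 and 13.2. Mnt scored 7.08, 6.83 and 26.3 in control and 32.1, 29.2 and 23.5 in senescent cells, with percentiles that overlapped too.

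For glycolysis, 4 of 21 genes (19.0%) had a member: Pfkl, Pkm, Pfkfb3 and Pdk1, which like Pdk2 is a kinase that inhibits pyruvate dehydrogenase. Pkm, which makes pyruvate, had no peak in control replicate 1, scored 5.37 and 13.3 in control replicates 2 and 3, and scored 28.0, 40.2 and 19.3 in senescent cells. In percentile Pkm stood at 85.4 in control replicate 3 and 84.7 in senescent replicate 3, so the groups overlapped. Pfkfb3, which makes the activator of phosphofructokinase, scored 6.88, 13.0 and 14.9 in control and 29.5, 45.2 and 19.3 in senescent cells. In percentile these were 52.3, 83.3 and 88.3 and 89.5, 96.7 and 84.7, so the groups overlapped (limma, adjusted p = 0.217). For nucleotide and one-carbon synthesis, 3 of 32 genes (9.38%) had a member, Impdh1, Impdh2 (both make the precursor of guanine nucleotides) and Mthfd2, and 6 genes of the list had regions with 2 or more E-boxes. Impdh1 had a peak of 4.53 in control replicate 3 alone of the control lists, and of 21.7, 22.1 and 20.0 in the senescent lists. For ribosome biogenesis it was 5 of 46 (10.9%): Pes1, Tcof1, Rrp12, Gar1 and Fbl, of which Pes1 was called in all 6 libraries, and Rrp12 and Gar1 in senescent libraries alone.

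For the p53 pathway and inhibitors of cyclin-dependent kinases, 4 of 30 genes (13.3%) had a member: Gadd45b and Gadd45g (damage-induced proteins), Sesn1 (a stress-induced inhibitor of mTORC1) and Bbc3 (the cell death gene Puma). Gadd45g scored 8.001, 11.7 and 13.6 in control and 33.0, 31.5 and 19.0 in senescent cells. In percentile these were 62.8, 79.96 and 86.1 and 90.9, 94.6 and 84.5, so the groups overlapped (limma, adjusted p = 0.223). Mitochondrial ribosomal proteins had 3 members of 78 genes (3.85%), Mrpl36, Mrpl45 and Mrpl54, and oxidative phosphorylation 2 of 96 (2.08%), Uqcrq and Ndufaf4, close to the share of all genes. Of genes with a called promoter region, 9 of 13 autophagy, 4 of 8 bHLH and 4 of 10 glycolysis genes had a member. For p53 it was 4 of 13, ribosome biogenesis 5 of 15, nucleotide synthesis 3 of 14 and mitochondrial ribosomal proteins 3 of 13. For clock it was 3 of 16, lysosome 2 of 19 and oxidative phosphorylation 2 of 17. Over all genes it was 712 of 2672. These shares were not tested.

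Other motifs were counted as exact letters on both strands within 100 bp of the centre of the best-ranked peak. The NF-Y box CCAAT was in 36.05% (95% Wilson interval 32.6 to 39.6) of members, 49.4% (47.0 to 51.7) of promoter regions without an E-box and 24.4% (21.7 to 27.4) of distal regions with 1 E-box. The SP1 motif GGGCGG was in 55.1% (51.5 to 58.7) of members and 57.7% (55.4 to 60.0) of promoter regions without an E-box, and the ETS motif CCGGAA in 20.0% (17.3 to 23.1) and 21.6% (19.7 to 23.6). The CRE motif TGACGTCA was in 1.80% (1.05 to 3.05) and 4.18% (3.33 to 5.23). Between members and promoters without an E-box the intervals of NF-Y and CRE did not overlap, and those of SP1 and ETS did. Of the distal regions, 13.1% (11.002 to 15.5) held the SP1 motif.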

How the data were processed

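BMAL1-ChIP-seq peak lists of 6 libraries were analysed. The authors mapped paired reads to mm10 with BWA and kept pairs of which 1 or both ends mapped uniquely. They removed duplicates with Picard and called peaks per library with MACS2 at an FDR of 1% or less. The score the authors deposited was read as −log10 of the q-value, since every score is above 2; whether input served as control is not stated. Scores were ranked within lists only. Depth is unknown. Columns of other samples numbered 0.

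Start sites came from GENCODE M21 (basic, protein-coding). Motifs were matched exactly. Exact permutation and sign-flip tests (Python 3.11.15, SciPy 1.17.1) were adjusted by Benjamini-Hochberg over 8 tests, of which the share called is given without its p because the members were chosen on the same calls. Regions called in all 6 libraries were compared with limma 3.58.1 (lmFit, eBayes) and Benjamini-Hochberg adjustment over all of them, at 5%. Both methods were tested on simulated data. Members and gene lists were chosen with earlier results of these data known. Genes were named by rule: the 12 best mean percentiles, the 6 largest differences each way, up to 5 members called in 3 libraries of 1 group and 0 of the other, members on a gene list, and the 2 on either side of 1000 bp. Same-numbered libraries did not deviate together, so replicates were not paired. Alternatives changed peak filters, overlap, distance, list length, scale and libraries. No sequence from chromosome 18 is printed.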

Additional observations from a re-analysis of the deposited data

Results flagged for a closer look

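Members ranked below distal regions with 1 E-box in all 3 control libraries and above them in all 3 senescent libraries, which is why the comparison is listed here. The difference of the median percentiles was −7.42, −3.67 and −0.358 points in control replicates 1 to 3 and 3.38, 5.68 and 1.62 points in senescent replicates 1 to 3. The means were −3.82 ± 3.53 and 3.56 ± 2.03 (SD, n = 3 each), 7.38 points apart (p = 0.1 by exact permutation, the lowest 3 against 3 libraries allow). Each median covers only the regions called in that library, so this p compares different regions in the 2 groups. The value of smallest size, −0.358 points in control replicate 3, came from the longest list. At equal list length control replicate 3 stood at 4.12 and the other two control libraries at −7.39 and −3.46, so the split by group was then no longer complete.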

How the results depend on the processing

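Peak lists limit all values: depth is unknown, and a region without a peak is not shown to be unbound. With 5 libraries an exact sign-flip test cannot go below p = 0.0625, so leaving out a library could only raise the p of the 3 comparisons at 0.031; their means ranged over 15.1 to 16.9 (against promoters without an E-box), −20.2 to −18.3 (against 2 or more E-boxes) and −17.9 to −11.8 (T on both sides against neither). Across the other alternatives they kept their sign.

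Peaks above the median score gave −0.395 for the group difference in median percentile, 0.609 against distal regions, 0.616 for central E-boxes, and 108 senescent-only, 9 control-only and 90 members in all 6 libraries. Equal list length gave −1.89, 0.549, −3.28 (exact sign-flip p = 0.031), 114 and 13. A distance of 500 bp gave 0.983 against distal regions and 1.63 for central E-boxes. Requiring 3 or more libraries gave 0.909 for central E-boxes, 75 senescent-only and 1 control-only members. Without 1 library each, the value against distal regions ran from −0.814 to 1.18, that of central E-boxes from −4.33 to 0.19, the senescent-only count from 84 (without senescent replicate 2) to 324 (without control replicate 3) and the control-only count from 1 to 15 (the same libraries in reverse order). Chosen after seeing the data, leaving out the longest list of each group gave 14.1 against promoters without an E-box (exact sign-flip p = 0.125, from 4 libraries), and 2 control-only members; the fixed window gave 2.58 against distal regions; and regions of 300 to 500 bp gave 6.35 (p = 0.156). Genomic sites from 250 bp upstream to 50 bp downstream lay in a member in 18.8% (T on neither side) and 24.7% (both sides); over all lone sites within 500 bp, members called in all 6 libraries held 2.97% and 1.94%. The causes were not tested.

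In limma, 19 regions were called higher and 23 lower, 4 of the members higher. On median-centred log2 scores this was 82 and 67, with 7 members higher and 2 lower. Among promoter regions alone it was 2 and 1, with 0 members. Without 1 library each, it ran from 0 to 15 higher and 0 to 6 lower, and 0 to 4 members higher. With the replicate number as a block, 0 and 0 regions and 0 members passed, at an unadjusted p under 0.05 131 higher and 136 lower. The deviations of same-numbered libraries correlated at 0.0682, −0.0474 and −0.0295, so the numbers were not taken to pair the libraries. In the paired form the share called differed by 33.6 points, and the exact sign-flip p was 0.75 for the median percentile (4.29) and 0.25 for the difference from promoters without an E-box (7.76), where 0.25 is the smallest 3 pairs can give.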

Other observations

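Promoter regions with 1 E-box that were called in a single library, and so are no members, numbered 269. Their calls came from control libraries in 36 cases and senescent libraries in 233. The same split over all regions called in a single library was not counted, so it is not read as a trait of these regions. The median percentile of these peaks was 36.9, against 42.9 for the mean percentile of members called in 2 libraries.

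CLOCK and BMAL1 are known to bind pairs of E-boxes, some with an incomplete partner. A second site that kept all but the first or last base of CACGTG, 6 or 7 bp from the E-box, was found in 3 members, all at 6 bp: Alpk1, Usp4 (a ubiquitin protease) and Qk (an RNA-binding protein), chosen after their values were seen. Their sequences, with the E-box in capitals, are as follows.
Alpk1 (chr3:127780435-127780464, minus strand): gcgtcgcagaggCACGTGtatcaacacgtt
Qk (chr17:10319749-10319778, minus strand): tacgtgtctggaCACGTGacgcccacccga
Usp4 (chr9:108347812-108347841, plus strand): gccgggcgcgcgCACGTGcgtggttacgtg
Alpk1 and Qk were called in all 6 libraries and Usp4 in 1 control and 3 senescent libraries. Among the genomic promoter sites, 3 of 10 with such a neighbour lay in a member (30.0%, Wilson interval 10.8 to 60.3), against 14.7% (13.6 to 15.8) of the other 3802. A gap of 6 bp was found in 3 members and a gap of 7 bp in 0, and the counts at gaps from 0 to 30 bp ran from 0 to 4 members.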
